A study of Homo sapiens with 12 samples.

Results

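The ubiquitin-specific proteases (USPs) are the largest family of human enzymes that remove ubiquitin from proteins. Their transcripts were followed in HCT116 cells, an established human colon cancer line, on Illumina HumanHT-12 v4 bead arrays. Members were all array probes of genes with a USP symbol (USP1 to USP54 and USPL1, without pseudogenes and Y-linked genes) that were detected above the negative control beads at a detection p under 0.01 on at least 3 of the 12 arrays. The array holds 82 such probes of 56 genes, and 43 probes of 30 genes met the detection rule, out of 13735 probes of 10464 genes tested in all. The rule used no comparison between groups, though a probe detected under DMSO alone could meet it.

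The 12 arrays formed 4 groups of 3: the parental line (WT, for wild type) and a knockout of ATF3 (KO), each given the solvent DMSO or camptothecin (CPT, 1.5 µM) over 4 h. CPT traps topoisomerase I on DNA and causes DNA damage. ATF3 is a stress-induced transcription factor, and the KO cells all carried the name of 1 clone (E11), made by virus-mediated recombination at the ATF3 gene, so clone and genotype cannot be told apart. Whether replicates came from separate cultures is not stated, so the p-values cover the spread of these samples alone, and that spread may be technical.

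A USP cuts the bond between ubiquitin and a target protein, or between ubiquitin units of a chain. This can spare the target from the proteasome, or change its activity or place in the cell. In the DNA damage response, USP7 acts on p53 and its ligase MDM2, USP1 with its partner WDR48 acts on FANCD2 and PCNA, and USP3, USP16 and others remove ubiquitin from histones.

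All values below are normalized log2 signals, and differences are log2 with their standard error (SE). Changes are called where limma's p, adjusted over all 13735 probes by Benjamini and Hochberg's method, was under 0.05, and "rose" and "fell" are used of such calls. Where a gene had several kept probes, they are named A, B and C from the highest to the lowest mean signal.

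The DMSO arrays detected 37 to 42 of the 43 probes and the CPT arrays 30 to 38, and 26 probes were detected on all 12. Arrays of DMSO-treated cells detected 15399 to 16823 probes in all, and arrays of CPT-treated cells 13713 to 15639. Of 10 epithelial and colon markers, 6 (EPCAM, CDH1, KRT8, KRT18, KRT19 and CDX2) were detected on all 12 arrays, while CDX1, VIL1, LGALS4 and CDH17 were detected on none. Of the markers of other cell types, 9 were detected on fewer than 3 arrays. CD14, a monocyte marker, was detected on the 6 CPT arrays only (at least 2.16-fold higher with CPT in WT and at least 2.02-fold in KO cells), and ALB, a liver marker, on 11 arrays, with changes of 0.88 and 0.80. The summed raw signal of these markers was 1058 to 1153 in WT cells under DMSO, 1095 to 1215 in WT under CPT, 1047 to 1141 in KO under DMSO and 1108 to 1153 in KO under CPT, and the part of other cell types in the results was not tested. ATF3 itself stood at 6.08, 5.91 and 8.13 on the WT DMSO arrays and at 9.89, 10.01 and 10.85 on the WT CPT arrays. The KO arrays gave 5.44, 5.07 and 5.44, and 7.71, 7.76 and 8.12 with CPT. The probe may lie outside the deleted bases, so it does not measure loss of the protein.

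The 39 USP probes left out were detected on 0 arrays (35 probes) or on 1 array (4 probes, for USP19, USP35, USP48 and USP54). In all, 26 genes had no kept probe, 8 of them copies of the USP17-like family. USP10, USP32 and USP36 had no probe that named them alone. Just inside the limit, USP18 and both USP2 probes were detected on 3 arrays, with raw signals from 96.3 to 122.3. Just outside it, the 4 probes detected once had raw signals from 92 to 116.6.

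For 23 of the 30 genes, promoter sequences were matched in RefSeq (GRCh38.p14), as windows of 250 bases before and 50 after a transcription start (30 windows in all). The 250 bases before the start had a median of 69.6% G and C over the USP genes, against 58.0% over 27305 genes, and a median of 25 CG pairs against 11. Because the comparison turns on ATF3, which binds the ATF/CRE site TGACGTCA and the AP-1 sites TGAGTCA and TGACTCA, both strands of these windows were searched for them. None of the 30 windows held either site, where 1.85% and 4.95% of all 35116 windows of this length did. The CRE core, TGACG or its reverse complement CGTCA, which overlaps the full site, was in 10 of the 30 windows (33.3%) and in 24.6% of all windows. A match is a description of letters, and its absence in a window says nothing of binding.

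Promoters of 5 genes are shown, since their genes carry the pattern described next: USP7, USP8 and USP16 had lower signals with CPT, USP21 had a higher one, and USP5 was the brightest member. Each is the 250 bases before the farthest upstream start, 5′ to 3′, with the CRE core in capitals. USP7 lies at chr16:8963907-8964156 (minus strand), USP8 at chr15:50424155-50424404 (plus), USP16 at chr21:29024418-29024667 (plus), USP5 at chr12:6851900-6852149 (plus) and USP21 at chr1:161159250-161159499 (plus).
USP7: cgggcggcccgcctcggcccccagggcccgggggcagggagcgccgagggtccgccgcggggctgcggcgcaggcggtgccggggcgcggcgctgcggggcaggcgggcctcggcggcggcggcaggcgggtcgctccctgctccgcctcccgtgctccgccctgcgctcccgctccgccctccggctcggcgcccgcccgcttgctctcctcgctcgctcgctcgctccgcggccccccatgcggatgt
USP8: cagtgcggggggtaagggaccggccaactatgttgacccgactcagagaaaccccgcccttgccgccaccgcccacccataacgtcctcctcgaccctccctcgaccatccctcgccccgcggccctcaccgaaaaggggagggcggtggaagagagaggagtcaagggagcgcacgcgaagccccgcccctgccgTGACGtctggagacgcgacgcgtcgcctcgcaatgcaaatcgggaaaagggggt
USP16: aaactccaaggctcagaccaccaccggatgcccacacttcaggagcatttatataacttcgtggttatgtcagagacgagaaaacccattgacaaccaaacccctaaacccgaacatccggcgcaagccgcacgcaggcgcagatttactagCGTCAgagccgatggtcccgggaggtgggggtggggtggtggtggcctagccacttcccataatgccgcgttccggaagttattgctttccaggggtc
USP5: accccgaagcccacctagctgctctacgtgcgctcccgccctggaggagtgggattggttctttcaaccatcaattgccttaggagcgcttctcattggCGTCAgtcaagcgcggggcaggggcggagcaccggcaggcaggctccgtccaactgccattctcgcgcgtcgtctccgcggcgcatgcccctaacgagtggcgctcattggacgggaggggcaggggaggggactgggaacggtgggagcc
USP21: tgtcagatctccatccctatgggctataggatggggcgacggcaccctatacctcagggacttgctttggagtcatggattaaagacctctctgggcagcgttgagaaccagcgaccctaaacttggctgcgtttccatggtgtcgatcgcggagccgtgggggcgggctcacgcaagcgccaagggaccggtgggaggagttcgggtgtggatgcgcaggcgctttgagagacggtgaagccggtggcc
In the 250 bases shown, the core stood once each for USP8, USP16 and USP5 and not for USP7 or USP21. Among genes that fell, the stretches shown thus both held and lacked it.

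The first question was how the USPs responded to DNA damage in WT cells. With CPT, 18 of the 43 probes (41.9%), of 16 genes, were lower and 1 was higher. Over all 13735 probes, 17.9% were called lower and 12.3% higher (30.2% in either direction). The median change was -0.53 over the USP probes and 0.03 over all probes. In sign, 33 of the 43 were lower and 10 higher, and all 19 called probes had the same sign in each of the 3 replicate pairs. The calls come from these same arrays, so that agreement is no separate support. The arrays of the 2 treatments did not overlap for 23 of the 43 probes, where 39.5% of all probes did not overlap.

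In KO cells the counts were close to these. With CPT, 17 probes (39.5%), of 14 genes, were lower and 2 were higher, where 17.2% of all probes were called lower and 13.1% higher (30.3% in either direction). The median change was -0.54 against 0.03 over all probes, and the groups did not overlap for 28 of the 43 (47.6% of all probes). In both genotypes 15 probes were called lower and 1 higher. WT cells alone had calls for USP13 probe A, USP4 probe A and USP42 probe A, and KO cells alone for USP11, USP14 probe A and USP48 probe B. With the replicate number added to the fit as a block, all of these were called in both genotypes. The difference in response is tested further below. In bulk cultures, fewer cells of a type and less RNA per cell cannot be told apart.

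**Figure D1:**
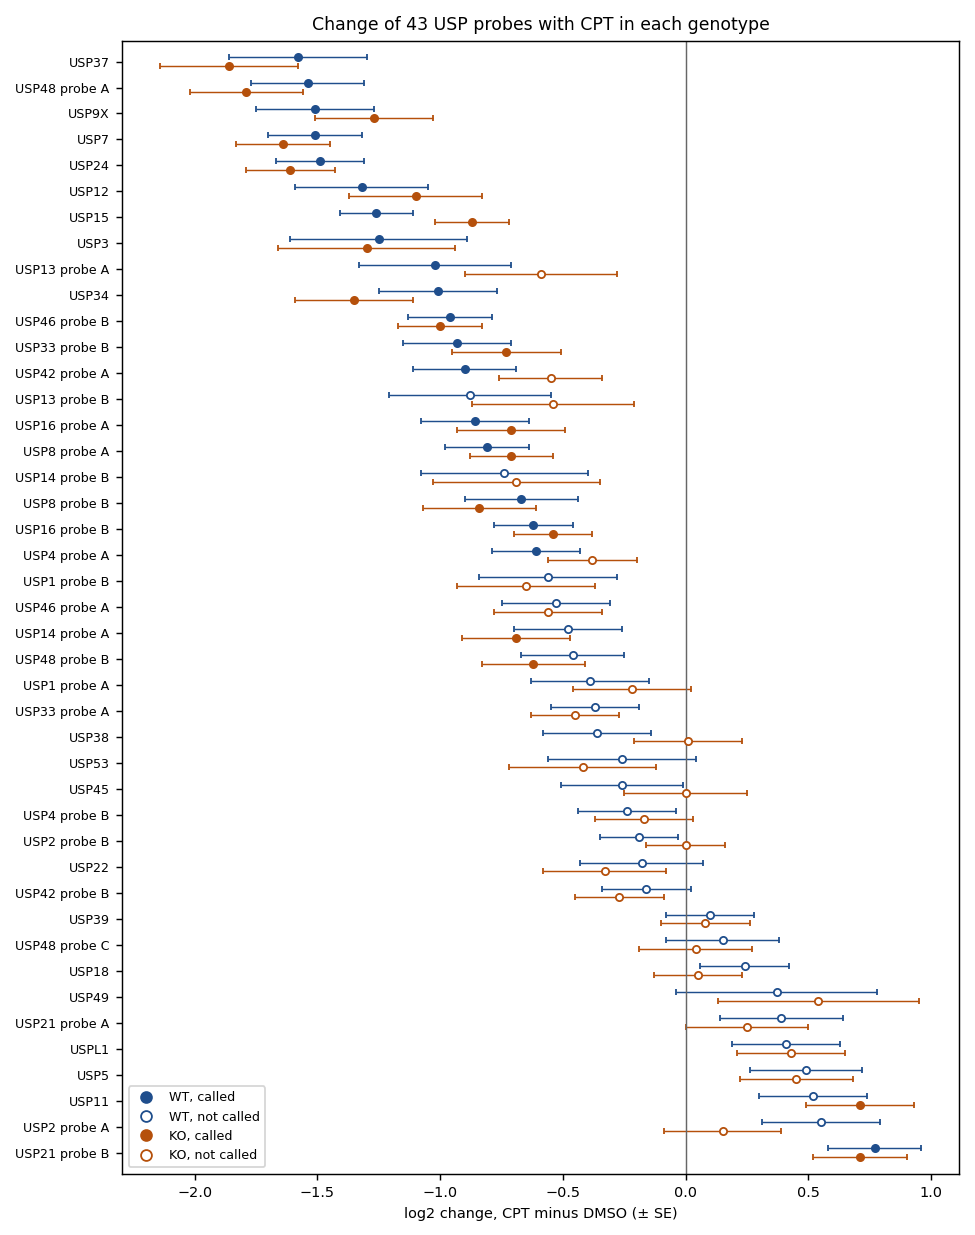
Change of each of the 43 USP probes with CPT (x axis, log2, CPT minus DMSO, ± SE) in WT and KO cells, in order of the WT change. Filled points passed the test, and 33 probes in WT and 31 in KO cells lie below 0, down to -1.58 (WT) and -1.86 (KO) for USP37.

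The family member of the cell cycle, USP37, which removes ubiquitin from cyclin A and eases entry into S phase, had the largest fall in both genotypes in the fit reported. Without background correction USP3 (-1.06 in WT and -1.11 in KO), USP7 (-0.93 and -1.03) and USP48 probe A (-0.74 and -0.85) fell further than USP37 (-0.63 and -0.80). USP9X (-0.74), USP42 probe A (-0.71) and USP16 probe A (-0.69) did so in WT. With median scaling USP7 (-2.05), USP48 probe A (-2.01) and USP9X (-1.97) fell further than USP37 (-1.93) in WT. With the arrays scaled to the medians of the probes tested they did so too (-1.48, -1.44 and -1.41 against -1.36). USP37 measured 6.17, 6.69 and 6.73 on the WT arrays with DMSO against 4.72, 4.66 and 5.46 with CPT. On KO arrays it stood at 6.88, 7.05 and 6.67 under DMSO and 5.05, 4.50 and 5.47 under CPT. The groups did not overlap, and only 1 of 3 WT arrays and 2 of 3 KO arrays still detected it under CPT. The change was -1.58 ± 0.28 in WT (adjusted p = 0.00125, limma) and -1.86 ± 0.28 in KO cells (adjusted p = 0.000442), n = 3 each.

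Among regulators of the damage response and p53 (8 genes, 12 probes), 4 probes were lower in WT and 2 in KO cells, and 1 was higher in KO. Over all probes 17.9% were lower in WT and 17.2% in KO cells, and 13.1% were higher in KO, so the KO counts of this group were at or under those of all probes. USP7, which stabilises MDM2 and p53, measured 7.68, 7.70 and 8.11 on the WT arrays with DMSO against 6.04, 6.43 and 6.50 with CPT. Its signals in KO cells were 7.75, 8.05 and 8.05 against 6.19, 6.48 and 6.25. Every CPT array was more than 1 log2 unit below every DMSO array of the same genotype, with a change of -1.51 ± 0.19 in WT (adjusted p = 0.000149) and -1.64 ± 0.19 in KO cells (adjusted p = 7.58e-05).

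USP24, a large enzyme that acts on p53 among others, measured 6.61, 6.75 and 6.48 on the WT arrays with DMSO against 5.24, 4.77 and 5.35 with CPT. KO cells gave 7.18, 7.17 and 6.94 against 5.41, 5.60 and 5.45. The groups were far apart in both genotypes, and the changes were -1.49 ± 0.18 in WT (adjusted p = 0.000118) and -1.61 ± 0.18 in KO cells (adjusted p = 6.22e-05).

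USP13, which acts on Beclin 1 complexes, and USP42, another enzyme that acts on p53, passed in WT cells only in the fit reported, on their A probes. With the replicate block both A probes passed in KO cells too. The USP13 change was -1.02 ± 0.31 (adjusted p = 0.0245) in WT and -0.59 ± 0.31 (adjusted p = 0.165) in KO cells. USP13 probe B measured -0.88 and -0.54. USP1, the enzyme of FANCD2 and PCNA, did not pass on either probe in either genotype in the fit reported (-0.22 to -0.65). With median scaling its probe A passed in WT (adjusted p = 0.0205) and its probe B in both genotypes (adjusted p = 0.0132 and 0.0183). Probe B also passed in both with the replicate block. USP45, which acts on the repair nuclease ERCC1, measured -0.26 and 0.00 near the detection limit.

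USP11, linked to repair by homologous recombination, went the other way. It measured 7.05, 7.05 and 7.22 in KO cells under DMSO and 7.80, 7.82 and 7.82 under CPT, a rise of 0.71 ± 0.22 (adjusted p = 0.027). In WT cells it measured 7.31, 7.35 and 7.10 against 7.90, 8.19 and 7.21, and replicate 3 under CPT lay below 2 of the DMSO arrays. At 0.52 ± 0.22 the WT change missed the threshold (adjusted p = 0.0895), and it passed once the replicate number entered as a block (adjusted p = 0.0436).

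Of the histone and chromatin USPs (8 genes, 13 probes), 6 probes were lower and 1 higher in WT cells, and 7 lower and 1 higher in KO cells. The shares of all probes were 17.9% lower and 12.3% higher in WT, and 17.2% and 13.1% in KO cells. USP48, an enzyme of histone H2A, fell on its brightest probe from 7.06, 7.08 and 7.05 to 5.02, 5.64 and 5.92 in WT cells, and from 7.30, 6.87 and 7.13 to 5.03, 5.56 and 5.36 in KO cells. These groups lay more than 1 unit apart, at -1.54 ± 0.23 (adjusted p = 0.000434) and -1.79 ± 0.23 (adjusted p = 0.000161). Its other probes are described with the disagreements between probes below.

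USP3, an H2A enzyme needed for normal progress through S phase, was the second brightest member. It measured 9.56, 9.67 and 10.11 on the WT arrays with DMSO against 7.86, 8.13 and 9.60 with CPT, so that WT CPT replicate 3 overlapped the DMSO arrays. The KO values were 9.49, 9.62 and 9.66 against 8.17, 8.05 and 8.66, with no overlap. The change was -1.25 ± 0.36 (adjusted p = 0.0207) in WT and -1.30 ± 0.36 (adjusted p = 0.0171) in KO cells.

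USP12 and USP46 are close relatives that work with WDR48. USP12 measured 5.62, 5.93 and 6.41 on the WT arrays with DMSO against 4.63, 4.17 and 5.19 with CPT, where 1 of 3 arrays detected it, a change of -1.32 ± 0.27 (adjusted p = 0.00342). On KO arrays it stood at 6.01, 5.40 and 5.59 under DMSO and was not detected under CPT, so that it was at least 1.56-fold lower (adjusted p = 0.00981). USP46 probe B was not detected under CPT on any array and was at least 1.26-fold lower in WT (adjusted p = 0.00148) and at least 1.37-fold lower in KO cells (adjusted p = 0.00112). Such bounds are taken against the lowest signal detected on each array. USP46 probe B met the detection rule through the DMSO arrays alone, a selection that favours falls. USP12, USP15 and USP8 probe B also needed DMSO arrays to meet it, since too few CPT arrays detected them. On its brighter probe A, detected on all 12 arrays, USP46 measured -0.53 in WT (adjusted p = 0.0918) and -0.56 in KO cells (adjusted p = 0.0741). Neither change passed in the fit reported. Both passed with the replicate block, and with median scaling (-0.98, adjusted p = 0.0172 in WT, and -0.93, adjusted p = 0.0265 in KO cells).

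USP16, another H2A enzyme, with a role in mitosis, fell on both probes in both genotypes, by 0.54 to 0.86. USP21, also an H2A enzyme, was the one chromatin member that rose. On probe B it measured 5.46, 5.13 and 5.79 on the WT arrays with DMSO against 6.42, 6.03 and 6.24 with CPT, and 5.45, 5.35 and 5.63 against 6.09, 6.25 and 6.23 in KO cells. The groups did not overlap, with changes of 0.77 ± 0.19 (adjusted p = 0.00908) and 0.71 ± 0.19 (adjusted p = 0.0137), while probe A measured 0.39 and 0.25 and did not pass. USP22, the enzyme of the SAGA coactivator complex, measured -0.18 and -0.33, and USP49, which acts on histone H2B, 0.37 and 0.54, and neither passed.

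Of the signalling USPs (5 genes, 6 probes), 4 probes were lower in WT and 3 in KO cells, against 17.9% and 17.2% of all probes. USP9X, an X-linked enzyme of endocytosis, SMAD4 and MCL1, measured 7.05, 7.39 and 6.73 on the WT arrays with DMSO against 5.14, 5.87 and 5.63 with CPT. Its signals in KO cells were 7.43, 7.81 and 7.63 against 6.10, 6.74 and 6.23. The groups did not overlap, and the changes were -1.51 ± 0.24 (adjusted p = 0.000762) and -1.27 ± 0.24 (adjusted p = 0.00215).

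USP34, an enzyme of axin in Wnt signalling and the longest gene of the family here, measured 6.30, 6.21 and 6.69 on the WT arrays with DMSO against 5.12, 5.22 and 5.84 with CPT. KO cells gave 6.94, 6.78 and 7.09 against 5.17, 5.82 and 5.76. It fell by 1.01 in WT (SE 0.24, adjusted p = 0.00717) and by 1.35 in KO cells (SE 0.24, adjusted p = 0.00119).

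USP15 and USP4 are paralogs that act in TGF-beta signalling. USP15 measured 5.93, 6.18 and 6.08 on the WT arrays with DMSO against 4.92, 4.73 and 4.78 with CPT. The KO values were 5.72, 5.54 and 5.78 against 4.98, 4.70 and 4.75, and 1 of 3 arrays detected it under CPT in each genotype. The changes were -1.26 ± 0.15 (adjusted p = 0.000137) and -0.87 ± 0.15 (adjusted p = 0.00127). USP4 probe A passed in WT cells only (-0.61 ± 0.18, adjusted p = 0.0219, against -0.38 in KO), and with the replicate block in KO cells too. USP18, the protease of the ubiquitin-like protein ISG15, was near the detection limit at 0.24 and 0.05, and a near-identical gene copy could share its signal.

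**Figure D2:**
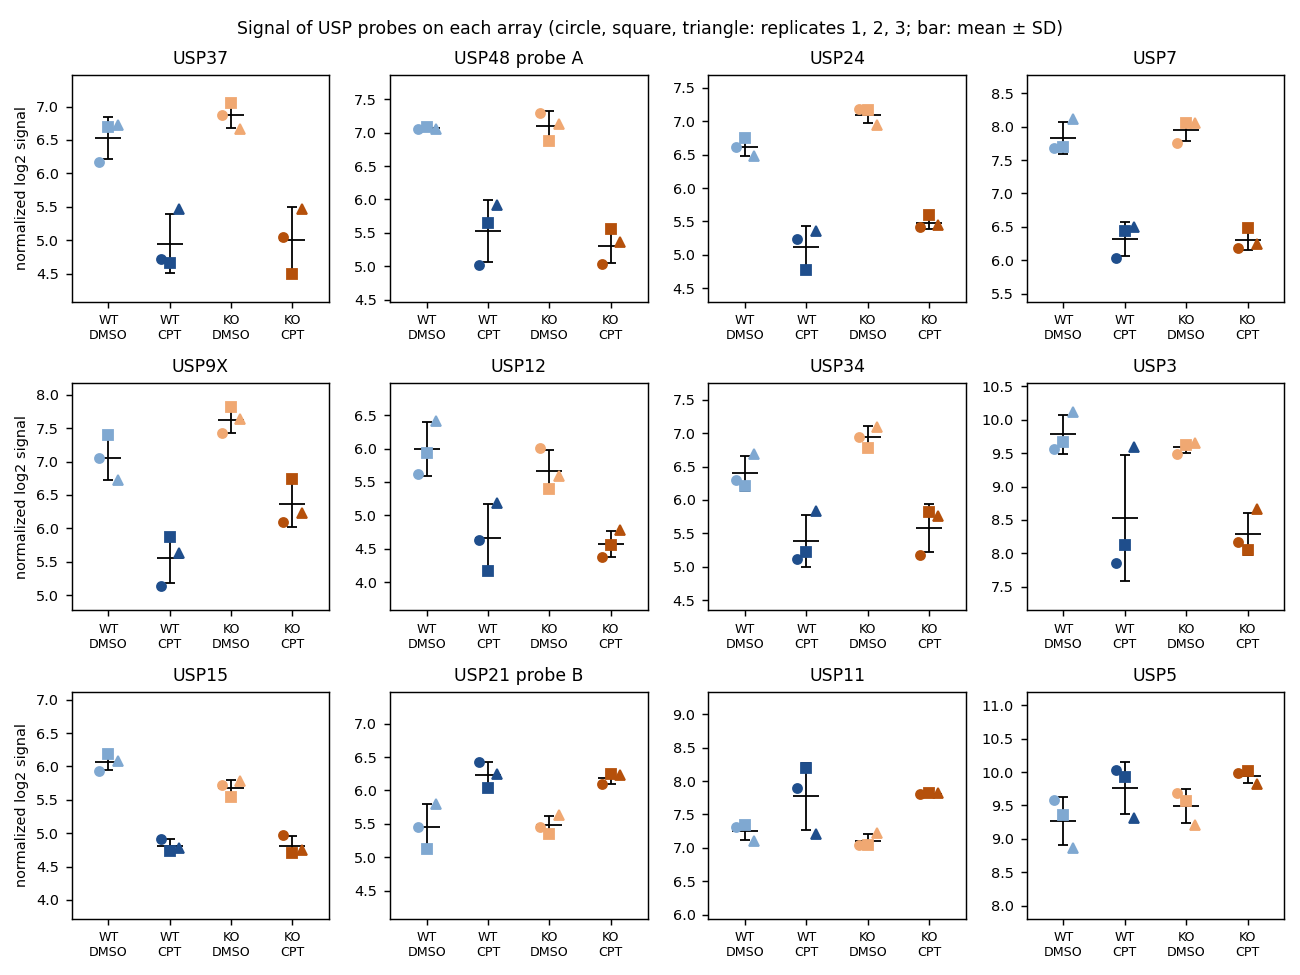
Normalized log2 signal (y axis) of 12 USP probes on each of the 12 arrays, by group (x axis), with the mean ± SD as bars. The CPT arrays of USP7 lie at 6.04 to 6.50 and its DMSO arrays at 7.68 to 8.11, while USP21 probe B is higher under CPT in both genotypes.

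Both membrane traffic members, USP8 and USP33 (4 probes), had 3 probes lower in each genotype. Of all probes, 17.9% were lower in WT and 17.2% in KO cells. USP8, which trims ubiquitin from endosomal receptors, changed by -0.81 ± 0.17 (adjusted p = 0.00402) and -0.71 ± 0.17 (adjusted p = 0.0082) on probe A. Its probe B was not detected in WT cells under CPT and was at least 1.09-fold lower there (adjusted p = 0.0438), and in KO cells, where 1 of 3 arrays detected it under CPT, it changed by -0.84 ± 0.23 (adjusted p = 0.0163). USP33, an enzyme of receptor recycling, measured 5.88, 6.50 and 6.45 on probe B on the WT arrays with DMSO against 5.09, 5.55 and 5.40 with CPT, and 6.40, 6.40 and 6.81 against 5.57, 5.95 and 5.89 in KO cells. These groups did not overlap (-0.93 ± 0.22, adjusted p = 0.00649, and -0.73 ± 0.22, adjusted p = 0.0219).

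Of the 2 enzymes of ubiquitin recycling, USP14 fell in KO cells and USP5 did not pass in the fit reported. USP5, which takes apart free ubiquitin chains, was the brightest member (mean 9.61). It measured 9.58, 9.36 and 8.86 on the WT arrays with DMSO against 10.03, 9.93 and 9.31 with CPT, and 9.69, 9.57 and 9.21 against 9.99, 10.02 and 9.82 in KO cells. Each replicate pair was higher under CPT, but the changes of 0.49 ± 0.23 and 0.45 ± 0.23 did not pass in the fit reported (adjusted p = 0.13 and 0.167). They passed with the replicate block (adjusted p = 0.0117 and 0.018). They also passed with the arrays scaled to the medians of the probes tested (0.72 and 0.68, adjusted p = 0.0267 and 0.0352). USP14, the proteasome-bound USP, was lower on probe A in KO cells (-0.69 ± 0.22, adjusted p = 0.0312), and at -0.48 in WT it did not pass (adjusted p = 0.12).

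USP39, a spliceosome protein without protease activity and the third brightest member, measured 9.19, 8.65 and 9.02 on the WT arrays with DMSO against 8.96, 8.98 and 9.20 with CPT, and 8.94, 9.00 and 8.66 against 8.97, 9.00 and 8.86 in KO cells. The groups overlapped, at 0.10 ± 0.18 and 0.08 ± 0.18. USPL1, a SUMO protease of Cajal bodies, measured 0.41 and 0.43 and passed only with the replicate block (adjusted p = 0.0387 and 0.0316). USP38 (-0.36 and 0.01) and USP53, a tight junction protein (-0.26 and -0.42), did not pass. The dimmest members were USP45, USP2 probe B and USP18 (means of 4.70, 4.75 and 4.75), detected on 3 or 4 arrays. USP18 measured 4.85, 4.67 and 4.45 (WT, DMSO), 5.09, 4.70 and 4.90 (WT, CPT), 4.77, 4.46 and 4.85 (KO, DMSO) and 4.91, 4.58 and 4.74 (KO, CPT). USP45 measured 4.77, 5.09 and 4.62, then 4.48, 4.89 and 4.32, then 4.87, 4.61 and 4.63, and last 4.62, 5.25 and 4.24 in the same order. No comparison of USP18 or USP45 passed in the fit reported. USP18 passed in WT cells with the arrays scaled to the medians of the probes tested (0.70, adjusted p = 0.00571).

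With the replicate block, 25 probes were lower and 5 higher in WT cells, and 24 lower and 4 higher in KO cells, against 24.9% lower and 23% higher over all probes in WT and 23.9% and 23.2% in KO. The falls it added in WT cells were USP13 probe B (adjusted p = 0.00665), USP46 probe A (0.0143), USP14 probes A (0.0473) and B (0.0317), USP1 probe B (0.0385), USP33 probe A (0.0397) and USP48 probe B (0.0436). In KO cells it added USP46 probe A (0.0104), USP42 probe A (0.0127), USP33 probe A (0.0174), USP1 probe B (0.0199), USP13 probe A (0.0345), USP14 probe B (0.0435) and USP4 probe A (0.0495), so that USP13, USP42 and USP4 then had calls in both genotypes. The rises were then USP21 probe B, USP11, USP5 and USPL1 in both genotypes, and USP2 probe A in WT. With the arrays scaled to their medians, no rise was called in either genotype (USP21 probe B at 0.35 and 0.38, adjusted p = 0.275 and 0.247), while 27 and 22 falls were called. That scaling moved all probes the same way, with 2.4% called higher and 28.4% lower in WT and 3.67% and 22.4% in KO cells. Of the 10 USP probes above 0 in WT, 6 were then below it (-0.30 to -0.01), namely USP11, USP21 probe A, USP39, USP48 probe C, USP49 and USPL1. Of the 12 above 0 in KO cells, 5 were below it (-0.35 to -0.07), namely USP21 probe A, USP38, USP39, USP45 and USP48 probe C. Scaling to the medians of the probes tested moved signs the other way. Of the 33 probes below 0 in WT, 5 were then above it, namely USP2 probe B, USP4 probe B, USP42 probe B, USP45 and USP53. In KO cells 3 of the 31 were, namely USP2 probe B, USP4 probe B and USP42 probe B. None of these changes was a call in the fit reported.

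Several calls changed when 1 array was left out. Of the 19 calls in WT cells, 13 passed without each of the 12 arrays in turn. USP16 probe A lost its call without WT DMSO replicate 3 (adjusted p = 0.0502) and probe B without WT CPT replicate 2 (adjusted p = 0.0556). USP3 lost its call without WT CPT replicate 1 or 2 or WT DMSO replicate 3 (highest 0.0848), and USP13 probe A without WT DMSO replicate 1 or 2 or WT CPT replicate 3 (highest 0.0945). USP4 probe A lost its call without any of 4 WT arrays, WT CPT replicates 1 and 2 and WT DMSO replicates 2 and 3 (highest 0.0842), and USP8 probe B without any of 9 arrays, all but WT DMSO replicate 3 and replicate 1 of both KO groups (highest 0.154).

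Of the 19 calls in KO cells, 10 passed without each array. USP21 probe B lost its call without KO DMSO replicate 2 (adjusted p = 0.0561), USP33 probe B without KO CPT replicate 1 or KO DMSO replicate 3 (highest 0.0914), and USP3 without KO DMSO replicate 2 or 3 or KO CPT replicate 2 (highest 0.0638). USP8 probe B lost its call without KO DMSO replicate 1 or KO CPT replicate 2 or 3 (highest 0.0703). USP11 lost its call without any KO array but KO DMSO replicate 3 (highest 0.079), and USP16 probe A without any but KO DMSO replicate 1 (highest 0.106). USP16 probe B lost its call without any KO array but KO CPT replicate 1 or KO DMSO replicate 2 (highest 0.095), and USP14 probe A without any KO DMSO array or KO CPT replicate 3 (highest 0.125). USP48 probe B lost its call without KO CPT replicate 1 or 3, KO DMSO replicate 2 or 3, or WT DMSO replicate 2 (highest 0.137).

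USP genes were long. Gene lengths in RefSeq (GRCh38.p14), from the first to the last annotated base, had a median of 70.1 kb over the 30 USP genes and 26.8 kb over the 10459 tested genes with a length, and 25 of the 30 were longer than that median. With the brightest probe of each gene, the CPT change and the length had a Spearman correlation across the 30 genes of -0.75 in WT and -0.72 in KO cells. Over all genes with a length it was -0.45 and -0.44. Genes are not independent replicates, and the USP genes share the same 12 arrays, so these are descriptions. In the 3 replicate pairs taken singly, the correlation over the USP genes was -0.77, -0.73 and -0.64 in WT and -0.79, -0.53 and -0.69 in KO cells.

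The 10 shortest USP genes (6.2 to 43.8 kb, from USP21 to USP22) had a median change of 0.32 in WT and 0.10 in KO cells, against 0.12 and 0.13 for all genes of that length range. One of them, USP16, was lower in each genotype, where 11.8% and 10.6% of all genes in the range were lower, and USP11 was higher in KO (17.5% of all genes in the range were higher). The 10 of middle length (46.4 to 90.0 kb) had medians of -0.50 and -0.50, against -0.27 and -0.25 for all genes in the range. Of these 10, 4 in WT and 3 in KO cells were lower, close to the 29.5% and 27.5% of all genes in the range. The 10 longest (90.0 to 283.6 kb) had medians of -1.29 and -1.28, against -0.49 and -0.49 for all genes in the range, and 9 of 10 in WT and 8 of 10 in KO cells were lower, where 41.5% and 42% of all such genes were.

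The exception among the long genes was USP49 (105.5 kb), at 0.37 ± 0.41 and 0.54 ± 0.41, with CPT values from 5.56 to 7.35 that overlapped those under DMSO in both genotypes. USP7 (71.8 kb) fell further than its length group in both genotypes. Without the 10 longest genes the correlation was -0.62 in WT and -0.69 in KO cells, and without the 10 shortest -0.55 and -0.52.

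**Figure D3:**
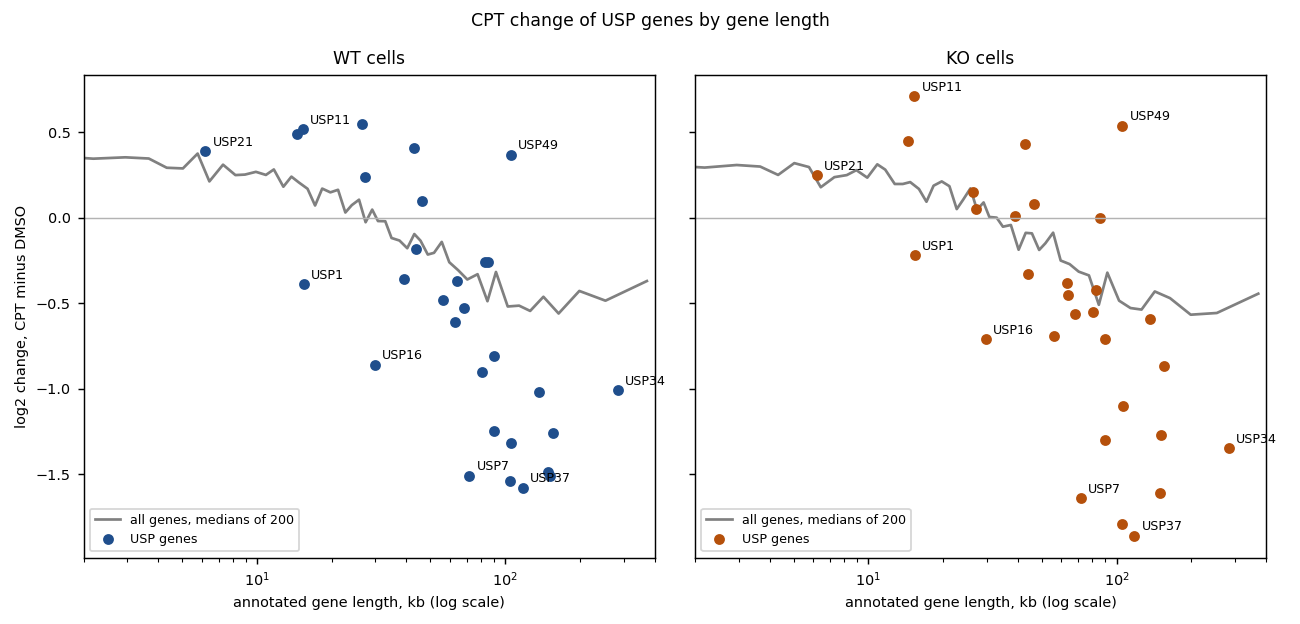
Log2 change with CPT (y axis) of the brightest probe of each of 30 USP genes against gene length in kb (x axis, log scale), in WT (left) and KO cells (right). The grey line joins medians of 200 genes in order of length over all genes, and the 10 longest USP genes, apart from USP49, lie below it.

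In all, 12 genes had several kept probes, 25 in all, and 10 of the 12 had the same sign on all their probes in each genotype. The probes of 4 genes in WT and 1 in KO cells differed by over 0.5. USP48 differed most. Probe A fell by 1.54 in WT and by 1.79 in KO cells, as given above. Probe B measured 5.83, 6.03 and 6.28 on the WT arrays with DMSO against 5.48, 5.97 and 5.31 with CPT, and 6.02, 6.36 and 6.29 against 5.62, 5.82 and 5.37 in KO cells (-0.46 ± 0.21, adjusted p = 0.112, and -0.62 ± 0.21, adjusted p = 0.0403). Probe C measured 4.60 to 5.36 over all 12 arrays, was detected on 8, and changed by 0.15 and 0.04.

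USP42 probe A measured 8.46, 8.75 and 9.10 on the WT arrays with DMSO against 7.64, 7.71 and 8.26 with CPT, and 8.18, 8.47 and 8.60 against 7.84, 7.94 and 7.80 in KO cells (-0.90 ± 0.21, adjusted p = 0.00749, and -0.55 ± 0.21, adjusted p = 0.067). Its probe B stayed between 4.46 and 5.14, was detected on 4 arrays, none of them under CPT, and measured -0.16 and -0.27. USP33 probe A measured 5.84, 6.18 and 6.36 on the WT arrays with DMSO against 5.54, 5.87 and 5.85 with CPT (-0.37 ± 0.18, adjusted p = 0.143). The KO arrays gave 6.26, 6.41 and 6.70 against 6.02, 5.97 and 6.03, a change of -0.45. These compare with -0.93 and -0.73 on probe B. USP2, an enzyme of MDM2 and cyclin D1, had probes at the detection limit that differed in sign in WT cells, with 0.55 on probe A and -0.19 on probe B. Its probe A measured 4.38, 4.71 and 4.29 under DMSO and 4.74, 5.53 and 4.77 under CPT, and its probe B 4.82, 4.79 and 5.04 against 4.72, 4.65 and 4.70. In KO cells probe A measured 4.53, 4.57 and 4.99 against 4.57, 5.17 and 4.81, and probe B 4.64, 4.83 and 4.64 against 4.91, 4.57 and 4.62. Neither passed in the fit reported. In WT cells probe A passed with the replicate block (adjusted p = 0.032) and with the arrays scaled to the medians of the probes tested (1.02, adjusted p = 0.0108).

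**Figure D4:**
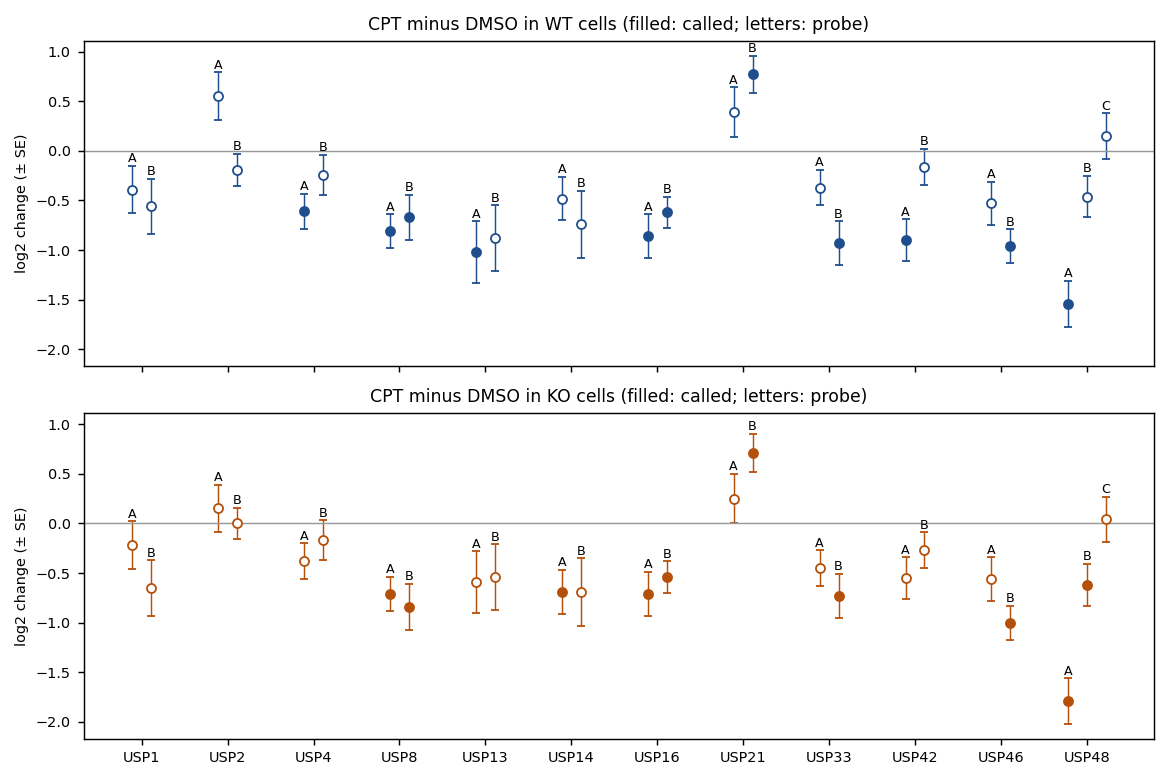
Log2 change with CPT (y axis, ± SE) for each kept probe of the 12 USP genes with several probes (x axis), in WT (top) and KO cells (bottom), with letters from the brightest probe (A) down. The 3 USP48 probes spread over 1.69 in WT and 1.83 in KO cells, while the probes of USP8, USP13 and USP16 lie within 0.23 of each other.

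The next question was whether loss of ATF3 changed the USPs. Under DMSO no USP probe was called between KO and WT cells (116 of all 13735 probes, 0.845%, were called in limma). At an unadjusted p under 0.05 there were 4, where 9.22% of all probes passed. These 4, chosen after their values were seen, were USP24 (0.49 ± 0.18, adjusted p = 0.358), USP9X (0.57 ± 0.24, adjusted p = 0.483) and USP34 (0.54 ± 0.24, adjusted p = 0.501), which had higher means in KO cells, and USP15 (-0.38 ± 0.15, adjusted p = 0.43), which had a lower one. The groups of each did not overlap (6 of the 43 probes did not, and 17.6% of all probes). With the replicate block no USP probe was called either, where 3.76% of all probes were, and USP9X had an adjusted p of 0.0715. The differences of all 43 probes lay between -0.38 and 0.57, with a median of 0.08 (0.00 over all probes).

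Under CPT again no USP probe was called (0.648% of all probes were), and 1 had an unadjusted p under 0.05 (9.93% of all probes). That was USP9X, with 5.14, 5.87 and 5.63 in WT and 6.10, 6.74 and 6.23 in KO cells, groups that did not overlap (as for 4 of the 43 probes and 13% of all probes). The difference of 0.81 ± 0.24 had an adjusted p of 0.214, and of 0.0175 with the replicate block, where 3.72% of all probes were called. USP33 probe B was next (0.46 ± 0.22, adjusted p = 0.515). The differences ranged from -0.24 to 0.81, with a median of 0.06 (0.01 over all probes). Both KO comparisons share no arrays with each other, but each shares its arrays with a CPT comparison.

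The CPT responses of KO and WT cells were then compared directly, with the replicate number as a block. No USP probe differed (adjusted p = 1 for each), and none had an unadjusted p under 0.05, where 4.94% of all probes did. The methods' paired t-test gave 1 USP probe at an unadjusted p under 0.05 (8.27% of all probes), USP8 probe A, and none after adjustment over all probes. The differences in response ran from -0.40 (USP2 probe A) to 0.43 (USP13 probe A), with a median of -0.04. The smallest p was that of USP15, whose response was -1.26 in WT and -0.87 in KO cells, a difference of 0.38 ± 0.19 (0.28, 0.60 and 0.27 in the replicate sets). Under CPT only 1 array per genotype detected USP15, and both CPT means were 4.81, so this difference repeats the DMSO difference of -0.38 and does not measure the depth of the fall. USP38 was next, at 8.23, 7.89 and 8.19 under DMSO and 7.91, 7.42 and 7.90 under CPT in WT cells, and 8.08, 8.03 and 8.13 against 8.58, 7.72 and 7.97 in KO cells, a difference of 0.37 ± 0.23. These p-values do not show that the responses were equal.

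Other parts of the ubiquitin system were measured for comparison, with the brightest probe of each gene. Of 25 other deubiquitinases tested, 9 were lower and 2 higher with CPT in each genotype, with medians of -0.32 and -0.48. Over all probes 17.9% were lower and 12.3% higher in WT, and 17.2% and 13.1% in KO cells, so the share of higher ones was below that of all probes. With the replicate block 10 were lower and 5 higher in WT, and 11 and 5 in KO cells. Over all probes 24.9% were then lower and 23% higher in WT, and 23.9% and 23.2% in KO cells. The share of higher ones was thus again below that of all probes. The falls included STAMBPL1, a K63-chain enzyme of endosomes (-2.50 ± 0.36 in WT, adjusted p = 0.000361, and -3.46 ± 0.36 in KO, adjusted p = 4.14e-05), OTUD6B (-1.78 and -1.64) and the proteasome-bound UCHL5 (-1.42 and -1.48). STAMBPL1 was detected under CPT on 1 of 3 WT and 2 of 3 KO arrays, so its values do not measure the depth of the fall. OTUB1 rose (0.66 and 0.74, with 0.30 and 0.49 on its other kept probe). MPND, detected on 1 of 3 WT DMSO arrays, rose in WT cells (0.64 ± 0.20, adjusted p = 0.027) and measured 0.23 in KO (adjusted p = 0.424). YOD1 rose in KO cells (1.80 ± 0.29, adjusted p = 0.000654) and measured 0.73 ± 0.29 in WT (adjusted p = 0.0711, and 0.0212 with the replicate block), and the difference of responses did not pass (1.07 ± 0.32, adjusted p = 0.752 with the block and 1 without). CYLD and PAN2, which share the USP fold under other symbols, did not pass in either genotype.

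For each list that follows, the shares of all probes were 17.9% lower and 12.3% higher in WT, and 17.2% and 13.1% in KO cells. Of 9 partner subunits of USPs, 4 were lower in each genotype and none was higher. They were STAM, the endosomal partner of USP8 (-1.88 and -1.86), GMPS, a partner of USP7 (-1.13 and -1.61), PAN3, the partner of PAN2 (-1.05 and -1.43), and G3BP1, a partner of USP10 (-0.62 and -0.69, with -0.41 and -0.33 on its other kept probe). WDR48, the cofactor of USP1, USP12 and USP46, measured -0.39 and -0.55 and did not pass. Of 7 USP substrates in the damage response, the checkpoint kinase CHEK1 (-1.16 and -1.18) and the phosphatase CDC25A (-1.35 and -1.23, with -0.62 and -0.58 on its other kept probe) were lower in both genotypes, and TP53BP1 in KO cells (-0.91, adjusted p = 0.0165, against -0.56 and 0.112 in WT, where it passed with the replicate block at an adjusted p of 0.0108). PCNA did not pass in the fit reported (0.58 and 0.50). With the replicate block it was higher in both genotypes (adjusted p = 0.0263 and 0.0468), while its other kept probe measured -0.29 and -0.54. MDM2 and MDM4 did not pass. With CPT the MDM2 probe cleared the detection limit on only 1 WT and 1 KO array. Its changes of -0.15 in WT and -0.09 in KO cells thus cannot show that MDM2 stayed level. Of 3 ubiquitin and activating enzyme genes, UBA6 was lower in KO cells (-0.62, adjusted p = 0.0189).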

How the data were processed

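RNA of 12 samples was hybridised to HumanHT-12 v4 bead arrays. The authors deposited mean bead signal intensity per probe on a linear scale, without background subtraction or scaling, with detection p-values against negative control beads. They also deposited signal intensity after background subtraction and quantile normalization in GenomeStudio (version not given in the sources used here), normalized apart for replicate 1 and for replicates 2 and 3.

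Here the linear signals were corrected by the nec function of limma (offset 16, noise taken from the detection p-values), quantile-normalized over all 12 arrays and log2-transformed. The offset understates the changes of dim probes. Probes naming exactly 1 gene (30098 of 47300) and detected at p under 0.01 on at least 3 arrays were kept. Symbols were updated by gene identifier through RefSeq (GRCh38.p14), with 30059 matched. The 12 arrays entered a single model with 4 group means in limma 3.58.1 (R 4.3.3, lmFit and eBayes, two-sided, 8 residual degrees of freedom). The difference in response was fitted with the replicate number as a block (6 degrees of freedom), since the methods' t-test of fold changes was paired. The numbers pair the samples: deviations from group means correlated at 0.26 to 0.68 between same-numbered arrays (18 pairs) and at -0.58 to 0.03 between the others (36 pairs). The fit without the block was run on simulated data for CPT in WT cells. The simulated arrays were independent and lacked this pairing, so that run does not test the fit on paired arrays.

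The members and gene lists were chosen with earlier results of these data known. Values on every array are given for ATF3, the 6 largest called rises and falls in each comparison (or the 2 smallest p), genes whose probes differ by over 0.5 with CPT, and the 3 brightest and 3 dimmest probes, and up to 3 called genes per direction are named for each list. Alternatives were the background correction, the scaling, the detection filter, 1 probe per gene, the authors' values, the block, replicates 2 and 3 alone and each array left out. The number of arrays limits the precision. The files name no genome build.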

Additional observations from a re-analysis of the deposited data

How the results depend on the processing

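For falls of USP probes with CPT (18 in WT, 17 in KO cells), the authors' values gave 11 and 11, with the direction kept. In KO cells, detection on all 12 arrays gave 10 falls and replicates 2 and 3 alone 11. The count of WT falls without 1 array ranged from 15 to 18 and of KO falls from 11 (without KO DMSO replicate 3) to 19. Rises (1 in WT, 2 in KO) became 5 and 4 with the replicate block, 0 and 0 with median scaling, 0 and 0 with the authors' values, 0 and 1 with 1 probe per gene and 0 and 0 with replicates 2 and 3 alone, and 4 and 3 with medians over the probes tested, a scaling chosen after seeing the data. Without 1 array they ranged from 1 to 3 (3 without WT CPT replicate 3) and from 0 (without KO DMSO replicate 2) to 2. The cause of these shifts was not tested, beyond the fewer arrays or probes by construction. Under CPT the replicate block gave 1 KO difference (USP9X, 0.81, adjusted p = 0.0175). For the difference in response, the methods' t-test gave 1 at an unadjusted p under 0.05 and 0 after Benjamini-Hochberg. No USP probe differed between genotypes under DMSO under any alternative run. Without the replicate block no difference in response was called either. The calls with CPT that the replicate block changed are given with the counts above.

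Scaling moved the split of all calls with CPT from 1693 higher and 2456 lower in WT (1803 and 2365 in KO) to 330 and 3897 (504 and 3083) with median scaling, and to 3644 and 1837 (3215 and 1818) with medians over the probes tested. The authors' values gave 462 and 1018 (489 and 983). These scalings moved the median of all probes to -0.30 and 0.27 in WT and to -0.19 and 0.24 in KO cells. Relative to it, the USP median was -0.55 in WT and -0.57 in KO cells in the fit reported, and -0.65 and -0.72 under both scalings. Of 38 calls and 6 other named differences, no called one changed sign under any alternative, 394 repeats kept their side of the threshold, 61 fell below it and 1 rose above it. Without background correction the USP median was -0.24 and -0.26 and the correlation with length -0.60 and -0.65. With an offset of 50 the WT median was -0.33 and the WT correlation -0.64, and with median scaling the medians were -0.95 and -0.90. Signals near the detection limit bound what can be seen of USP2, USP18, USP42 probe B, USP45 and USP48 probe C.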
